A study of Mus musculus with 4 samples.

Results

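The genes described here are 8 red blood cell genes read out in mouse neutrophils: the adult alpha-globin genes Hba-a1 and Hba-a2, the adult beta-globin genes Hbb-bs and Hbb-bt, the heme enzyme gene Alas2, the globin chaperone gene Ahsp, the membrane transporter gene Slc4a1 and the transcription factor gene Klf1. They were taken by symbol from the gene count table. Of the 8 symbols, 7 were found among the 54532 genes of the table, and all 7 passed the filter on low counts with 13479 genes in all. Ahsp was not analysed here. The libraries came from neutrophils of the bone marrow of WT mice, 2 from cells given amyloid-beta 40 (Aβ40, a peptide that proteases release from the amyloid precursor) at 20 µg/ml over 4 h and 2 from cells given DMSO, a solvent. The dose and the time stand in the design text for Aβ40 only, and the design text names neutrophil extracellular traps as its subject. The libraries are called Aβ40 1, Aβ40 2, DMSO 1 and DMSO 2 here. The labels name no strain, age, sex or purification step, and they leave unsaid if libraries that share a treatment came from separate mice or cultures, so p-values measure the spread between these libraries, which may be technical.

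Hemoglobin is built from alpha-type and beta-type globin chains that each hold a heme group, and red cell precursors make both chains in very large amounts. The bone marrow makes red cells and neutrophils side by side, and globin RNA persists in reticulocytes after the nucleus is lost. Alas2 makes the first and rate-limiting step of heme synthesis in erythroid cells. Ahsp binds free alpha chains, Slc4a1 (band 3) exchanges chloride for bicarbonate across the red cell membrane, and Klf1 binds CACCC boxes in erythroid promoters, that of the adult beta-globin gene among them.

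The copies within each globin pair are nearly identical, which bears on how reads are divided between them. In the GENCODE M21 transcripts (GRCm38, the same assembly as mm10) the coding sequences of Hba-a1 and Hba-a2, 429 bases each, differed by 1 substitution, C381T, and the transcripts shared a run of 415 bases. Those of Hbb-bs and Hbb-bt, 444 bases each, differed by C417T and shared a run of 430 bases. Positions count from the A of the start codon, and the Hba-a1 or Hbb-bs base is given first. The 41 bases around each substitution are shown because they hold the only coding difference within a pair, which is in capitals. They lie at chr11:32284323-32284363 and chr11:32297140-32297180 on the plus strand, and at chr7:103826672-103826712 and chr7:103812663-103812703 on the minus strand.
Hba-a1: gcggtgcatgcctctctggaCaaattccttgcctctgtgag
Hba-a2: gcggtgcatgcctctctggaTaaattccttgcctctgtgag
Hbb-bs: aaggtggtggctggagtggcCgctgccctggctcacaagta
Hbb-bt: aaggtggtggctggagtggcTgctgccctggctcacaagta
Reads that fall outside the untranslated ends and away from the substitution cannot be assigned to 1 copy, and how the authors' counting handled them is not given in the sources used here. Levels of single copies are therefore uncertain, while the sum over a pair does not depend on the split.

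The promoters of the members are shown because all 4 globin genes were lower in DMSO 2 than in DMSO 1, while Alas2 and Klf1 were higher there. RefSeq (GRCm38.p6) gave the 250 bases before its own annotated start for 6 of the 8 members, without Ahsp and Slc4a1. These starts differ from the mm10 gene starts given below, and each window reaches into the gene as placed there. Capitals mark 4 short motifs on either strand: GATAA, read by GATA factors, CACCC, read by Klf1 and related factors, CCAAT, and TATAA. The Hba-a2 window shared a run of 247 bases with that of Hba-a1 and is not printed. The windows are at chr11:32283422-32283671 (plus strand) for Hba-a1, chr7:103827929-103828178 (minus strand) for Hbb-bs, chr7:103813924-103814173 (minus strand) for Hbb-bt, chrX:150547167-150547416 (plus strand) for Alas2 and chr8:84901732-84901981 (plus strand) for Klf1.
Hba-a1: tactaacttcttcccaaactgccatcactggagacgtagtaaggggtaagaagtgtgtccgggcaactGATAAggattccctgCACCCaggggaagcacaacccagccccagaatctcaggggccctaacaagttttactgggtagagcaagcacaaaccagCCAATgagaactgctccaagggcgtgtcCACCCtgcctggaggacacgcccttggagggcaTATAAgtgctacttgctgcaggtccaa
Hbb-bs: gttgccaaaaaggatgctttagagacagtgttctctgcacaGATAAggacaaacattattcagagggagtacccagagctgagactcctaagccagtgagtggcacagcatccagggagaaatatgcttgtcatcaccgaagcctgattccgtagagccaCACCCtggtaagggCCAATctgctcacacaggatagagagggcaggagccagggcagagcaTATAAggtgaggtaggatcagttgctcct
Hbb-bt: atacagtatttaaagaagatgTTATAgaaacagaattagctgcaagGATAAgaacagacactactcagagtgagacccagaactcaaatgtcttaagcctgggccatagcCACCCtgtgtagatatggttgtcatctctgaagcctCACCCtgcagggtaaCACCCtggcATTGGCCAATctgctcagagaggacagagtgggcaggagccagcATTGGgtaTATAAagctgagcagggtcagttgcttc
Alas2: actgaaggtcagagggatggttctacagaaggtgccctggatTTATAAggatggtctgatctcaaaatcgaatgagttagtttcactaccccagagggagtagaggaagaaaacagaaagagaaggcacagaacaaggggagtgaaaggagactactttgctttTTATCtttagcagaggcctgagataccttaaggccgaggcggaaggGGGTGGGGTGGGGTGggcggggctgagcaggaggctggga
Klf1: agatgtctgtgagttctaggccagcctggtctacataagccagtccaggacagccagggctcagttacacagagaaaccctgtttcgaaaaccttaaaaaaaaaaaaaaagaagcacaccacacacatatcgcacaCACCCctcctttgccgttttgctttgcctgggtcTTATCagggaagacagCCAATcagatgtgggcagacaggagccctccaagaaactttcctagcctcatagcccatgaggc
GATAA stood in all 6 windows, against 22.6% of 32851 RefSeq windows of this length. CACCC also stood in all 6, against 52.0% of the windows. CCAAT (33.8% of the windows) stood in 5, without Alas2, and TATAA (22.8%) stood in 5, without Klf1. In Alas2 the marked TTATAA is TATAA on both strands, and in Hbb-bt CCAAT is preceded directly by its reverse, ATTGG. The printed windows of Hbb-bs and Hbb-bt shared no run longer than 14 bases, although their coding sequences differ by 1 base. A match is a description of these letters and shows no binding. Any part of these motifs in the differences between DMSO 1 and DMSO 2 was not tested.

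The libraries held between 17212264 and 19524125 counts, so that 1 count equals 0.0523 to 0.0585 CPM, the count per library size with TMM (trimmed mean of M-values) scaling. Between 13183 and 13521 genes had at least 10 counts. A chi-square test of counts over genes gave 15.6 per degree of freedom within the Aβ40 pair and 51.4 within the DMSO pair, so the DMSO libraries differed from each other by far more than sampling noise and by more than the Aβ40 libraries did. All 15 neutrophil markers of a list (S100a8, Ly6g, Elane and others) were detected in every library, with a summed level of 149645 and 142123 CPM in Aβ40 1 and 2 and 145150 and 104030 CPM in DMSO 1 and 2. In total RNA from a cell population, fewer cells of a type and less RNA per cell cannot be told apart.

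Hbb-bs and Hba-a1 had the highest levels per gene length of the members, and the globin genes together took well under 1% of all counts. The share of counts from the 4 globin genes was 0.332% in Aβ40 1 and 0.360% in Aβ40 2, against 0.478% in DMSO 1 and 0.224% in DMSO 2. The widest 95% Wilson interval of these shares, that of DMSO 1, ran from 0.475% to 0.481%, and these intervals cover counting error only. Both Aβ40 libraries lay between the DMSO libraries. The summed globin level averaged 3517 ± 123 CPM with Aβ40 and 3539 ± 2073 CPM with DMSO (SD, n = 2 each). The difference in mean log2 level was 0.13, with an exact 2-sided permutation p of 1, where the smallest p that the 6 splits of these libraries allow is 0.333. DMSO 1 held 2.41 times the summed level of DMSO 2, while Aβ40 2 held 1.05 times that of Aβ40 1.

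Hba-a1, an adult alpha-globin gene (ENSMUSG00000069919, mm10 chr11:32283511-32284465, plus strand), had 1065 and 1196 CPM in Aβ40 1 and 2, against 1571 CPM in DMSO 1 and 738 CPM in DMSO 2. The Aβ40 libraries lay between the DMSO libraries. Their mean was 0.719 times the level of DMSO 1 and 1.53 times that of DMSO 2. The fitted log2 fold change was -0.03 (SE 0.32, 95% confidence interval -0.75 to 0.69; edgeR quasi-likelihood test, Benjamini-Hochberg adjusted p = 0.976).

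Hba-a2, the second adult alpha-globin gene (ENSMUSG00000069917, chr11:32296489-32297298, plus strand), had 174 and 165 CPM in Aβ40 1 and 2, against 151 CPM in DMSO 1 and 56.6 CPM in DMSO 2. It was the only globin member with the Aβ40 libraries both above the DMSO ones, and 23.2% of all tested genes had that order. The Aβ40 mean was 1.12 times DMSO 1 and 2.997 times DMSO 2. The log2 fold change was 0.71 (SE 0.37, interval -0.12 to 1.54; edgeR quasi-likelihood test with Benjamini-Hochberg adjusted p = 0.470). Its share of the alpha-globin counts was 14.0% and 12.2% in Aβ40 1 and 2, against 8.75% and 7.12% in DMSO 1 and 2. The libraries of each group also differed from each other in this share by more than counting error, since none of the 95% Wilson intervals, which cover counting error only, overlapped. The split between these copies rests on the reads outside the shared run, so this share may depend on how the counting treated shared reads, which was not tested.

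Hbb-bs, an adult beta-globin gene (ENSMUSG00000052305, chr7:103826534-103828096, minus strand), had the highest counts of the members, with 34079 and 39480 in Aβ40 1 and 2 and 56369 and 21398 in DMSO 1 and 2. In scaled units it had 1993 and 2065 CPM in Aβ40 1 and 2, against 3021 CPM in DMSO 1 and 1151 CPM in DMSO 2. DMSO 1 was highest and DMSO 2 lowest, with a ratio of 2.63 between them. The Aβ40 mean was 0.672 times DMSO 1 and 1.76 times DMSO 2. The log2 fold change was -0.04 (SE 0.38, interval -0.89 to 0.81; edgeR quasi-likelihood test with Benjamini-Hochberg adjusted p = 0.974).

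Hbb-bt, the other adult beta-globin gene (ENSMUSG00000073940, chr7:103812524-103813996, minus strand), had 197 and 179 CPM in Aβ40 1 and 2, against 262 CPM in DMSO 1 and 128 CPM in DMSO 2. The order of the libraries matched that of Hbb-bs and Hba-a1 in that the DMSO libraries stood at both ends. The Aβ40 mean was 0.718 times DMSO 1 and 1.46 times DMSO 2, and the log2 fold change was -0.05 (SE 0.29, interval -0.72 to 0.61; edgeR quasi-likelihood test with Benjamini-Hochberg adjusted p = 0.957). Its share of the beta-globin counts was 9.01% and 7.96% in Aβ40 1 and 2, against 7.97% and 10.04% in DMSO 1 and 2, so the groups overlapped. Summed over copies and divided by length, alpha-globin stood at 0.547 and 0.585 of beta-globin in Aβ40 1 and 2, against 0.502 and 0.591 in DMSO 1 and 2. The alpha-to-beta ratio thus varied far less than the levels, since both pairs were high in DMSO 1 and low in DMSO 2.

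Alas2, the erythroid heme enzyme gene (ENSMUSG00000025270, chrX:150547375-150570638, plus strand), had 42.6 and 28.0 CPM in Aβ40 1 and 2, against 19.0 CPM in DMSO 1 and 25.4 CPM in DMSO 2. The Aβ40 libraries were both above the DMSO ones, and here DMSO 1 was the lowest library. The mean was 35.3 ± 10.3 CPM with Aβ40 and 22.2 ± 4.53 CPM with DMSO (SD, n = 2 each). The log2 fold change was 0.67 (SE 0.26, interval 0.09 to 1.25), with an unadjusted p of 0.0287 that did not pass the adjustment over all genes (edgeR quasi-likelihood, Benjamini-Hochberg adjusted p = 0.367). At an unadjusted p under 0.05 stood 12.2% of all tested genes.

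Slc4a1, the red cell anion exchanger gene (ENSMUSG00000006574, chr11:102348824-102366203, minus strand), had 12.9 and 11.9 CPM in Aβ40 1 and 2, against 12.1 CPM in DMSO 1 and 16.02 CPM in DMSO 2. The groups overlapped, and DMSO 2 was the highest library. The log2 fold change was -0.18 (SE 0.24, interval -0.73 to 0.37; edgeR quasi-likelihood test with Benjamini-Hochberg adjusted p = 0.795).

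Klf1, the erythroid transcription factor gene (ENSMUSG00000054191, chr8:84901928-84905291, plus strand), was the scarcest member, with 27 and 29 counts in Aβ40 1 and 2, against 34 and 40 counts in DMSO 1 and 2. The exact Poisson 95% intervals of these counts were 17.8 to 39.3 in Aβ40 1 and 19.4 to 41.6 in Aβ40 2, against 23.5 to 47.5 in DMSO 1 and 28.6 to 54.5 in DMSO 2, and they all overlapped. Both Aβ40 libraries lay below both DMSO libraries, an order seen in 21.9% of tested genes. In scaled units Klf1 had 1.58 and 1.52 CPM in Aβ40 1 and 2, against 1.82 and 2.15 CPM in DMSO 1 and 2, and the log2 fold change was -0.36 (SE 0.50, interval -1.49 to 0.77; edgeR quasi-likelihood test with Benjamini-Hochberg adjusted p = 0.808).

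**Figure D1:**
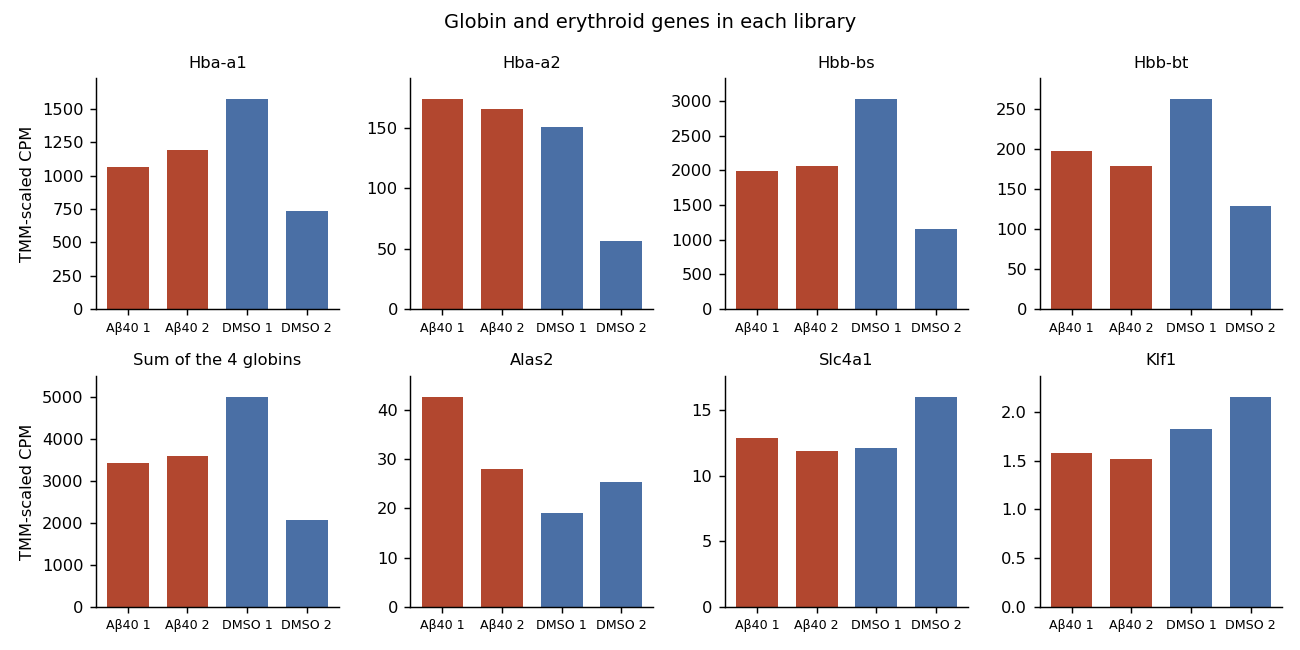
TMM-scaled CPM (vertical axes, from 0) of the 7 measured genes and of the sum of the 4 globin genes in each library, with Aβ40 libraries in red and DMSO libraries in blue. For Hba-a1, Hbb-bs, Hbb-bt and the sum, DMSO 1 is the highest and DMSO 2 the lowest bar, whereas for Alas2, Slc4a1 and Klf1 DMSO 2 stands above DMSO 1.

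On the FPKM scale, on which the authors divided counts by gene length and library size, the order of the genes was the same in all 4 libraries. Hbb-bs had 2552 and 2659 FPKM in Aβ40 1 and 2, against 3917 and 1491 FPKM in DMSO 1 and 2. Hba-a1 followed, with 1290 and 1456 FPKM in Aβ40 1 and 2, against 1927 and 904 FPKM in DMSO 1 and 2, so the ranges of Hbb-bs and Hba-a1 over libraries overlapped although Hbb-bs was higher within each. Hbb-bt ranged from 182 to 371 FPKM and Hba-a2 from 84.4 to 256 FPKM over the libraries, and these ranges also overlapped. Alas2 ranged from 7.86 to 17.4 FPKM, Slc4a1 from 2.41 to 3.26 FPKM and Klf1 from 0.980 to 1.40 FPKM, with no overlap between any of these 3 or with the globin genes.

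Of the 7 genes, 0 were called at an adjusted p under 0.05 by the edgeR quasi-likelihood test, against 0.126% of all tested genes (17 genes, each higher with Aβ40). DESeq2, limma-voom and edgeR's likelihood ratio test, which called 1.18%, 0.185% and 1.64% of the genes they tested, also called 0 members. At an unadjusted p under 0.05 stood 1 member, Alas2. Both Aβ40 libraries lay on 1 side of both DMSO libraries in 3 of 7 members, namely Hba-a2 and Alas2 above and Klf1 below, against 45.1% of all tested genes. The median log2 fold change of the 7 was -0.04, beside 0.01 over all tested genes.

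Of the 4 globin genes, Hba-a1, Hbb-bs and Hbb-bt changed direction with the DMSO library that stood for the control, and Hba-a2 did not. Fitted without DMSO 1, all 4 were higher with Aβ40. The log2 fold changes were 0.61 for Hba-a1, 1.58 for Hba-a2, 0.82 for Hbb-bs and 0.55 for Hbb-bt. Fitted without DMSO 2, Hba-a1, Hbb-bs and Hbb-bt were lower with Aβ40, at -0.49, -0.59 and -0.49, and Hba-a2 stood at 0.16. In each of these fits the lone DMSO library is assumed to vary as the Aβ40 pair does, which the spread of the DMSO pair does not match. Calls also rose over all genes in these fits, so no p-value of them is given for these genes. Over the alternatives that kept all libraries, the log2 fold change ran from -0.19 to 0.07 for Hba-a1 and from 0.54 to 0.88 for Hba-a2. For Hbb-bs it ran from -0.20 to 0.12 and for Hbb-bt from -0.24 to 0.04.

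The genes other than globins moved the opposite way, with a higher log2 fold change against DMSO 1 alone than against DMSO 2 alone. Alas2 stayed positive, at 0.88 without DMSO 2 and at 0.47 without DMSO 1. Without Aβ40 1, the library with its highest level, the log2 fold change of Alas2 was 0.34. Over the alternatives that kept all libraries, that of Alas2 ran from 0.59 to 0.69. Slc4a1 stood at -0.37 without DMSO 1 and at 0.02 without DMSO 2, and Klf1 at -0.48 and -0.25, none of them past the threshold.

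**Figure D2:**
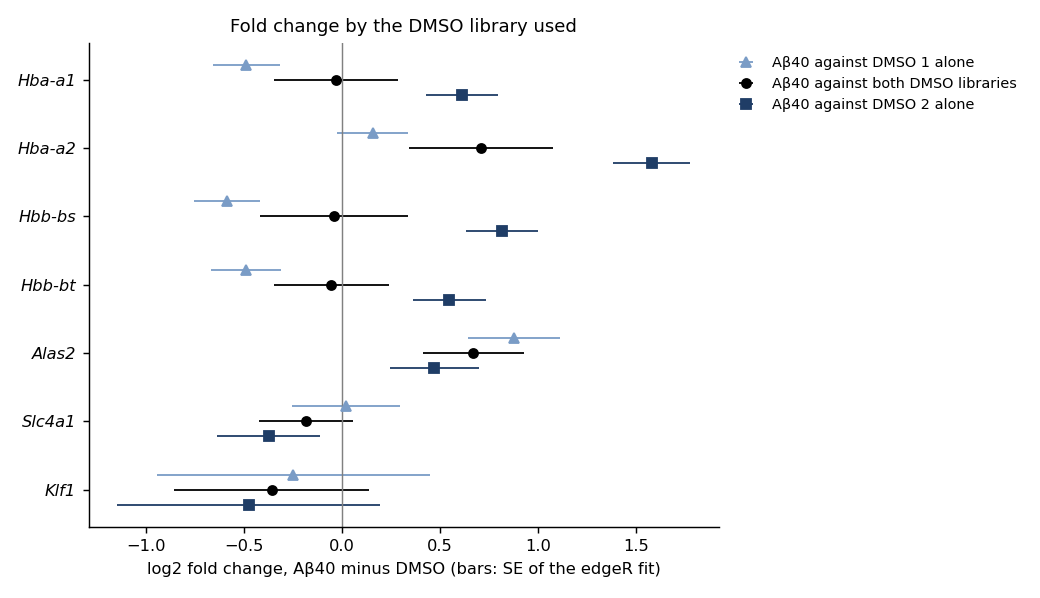
Fitted log2 fold change, Aβ40 minus DMSO (horizontal axis; bars are standard errors), of each gene against DMSO 1 alone (triangles), both DMSO libraries (circles) and DMSO 2 alone (squares). Hba-a1, Hbb-bs and Hbb-bt lie left of 0 against DMSO 1 and right of 0 against DMSO 2, while the points of Alas2 are all right of 0.

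Between the DMSO libraries, DMSO 2 was below DMSO 1 by 1.41 on the log2 scale for Hba-a2, 1.39 for Hbb-bs, 1.09 for Hba-a1 and 1.03 for Hbb-bt. A difference of DMSO 2 below DMSO 1 by over 1 on the log2 scale was found for 4.85% of all tested genes. Alas2, Slc4a1 and Klf1 were instead higher in DMSO 2, by 0.42, 0.40 and 0.23. These differences are between single libraries and have no test. Set against globin on the FPKM scale, Alas2 stood at 3.98 and 2.50 FPKM per 1000 globin FPKM in Aβ40 1 and 2, against 1.22 and 3.95 in DMSO 1 and 2. Slc4a1 stood at 0.591 and 0.523 per 1000 globin FPKM in Aβ40 1 and 2, against 0.383 and 1.23 in DMSO 1 and 2. For both genes DMSO 1 had the lowest ratio to globin, and for Slc4a1 DMSO 2 had the highest.

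Short genes as a class were also lower in DMSO 2. The 4 globin genes have annotated exon lengths of 667 to 812 bases, and the 486 tested genes of 600 to 900 bases had a median difference (DMSO 2 minus DMSO 1) of -0.40 on the log2 scale, while the 3649 genes above 6000 bases had a median of 0.09. Between the Aβ40 libraries the medians over the same length bins ran only from -0.04 to 0.09. The globin genes lay below the median of their length bin. Of the genes of 600 to 900 bases, 15.6% had a lower difference than Hba-a1 and 8.23% a lower one than Hba-a2. This share was 8.64% for Hbb-bs and 17.9% for Hbb-bt. With a smooth length trend removed in each library, a correction chosen after seeing the data, the difference was -0.76 for Hba-a1, -1.07 for Hba-a2, -1.06 for Hbb-bs and -0.69 for Hbb-bt. Over the 100 tested genes of the erythroid lists, the Spearman correlation of the difference with gene length was 0.33, or 0.25 without the 4 globin genes, beside 0.21 over all 13479 genes, as a description across genes of the same libraries. The part of gene length in the globin difference was not tested.

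**Figure D3:**
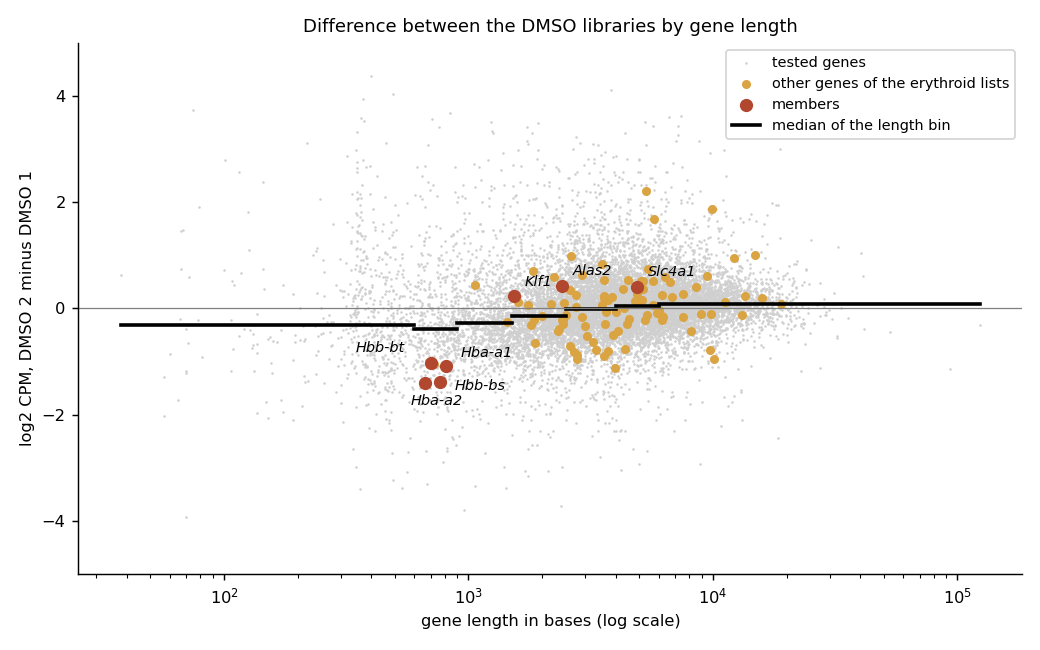
Difference in log2 CPM, DMSO 2 minus DMSO 1 (vertical axis), against annotated gene length in bases (horizontal axis, log scale) for 13479 tested genes (grey), other genes of the erythroid lists (yellow) and the 7 measured members (red), with the median of each length bin as a black line. The 4 globin genes sit between -1.41 and -1.03, below the median of their bin at -0.40, and Alas2, Slc4a1 and Klf1 sit above 0.

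The profile of the members over the 4 libraries was set against those of other genes. The median profile of the 7 genes, as log2 CPM centred on each gene's mean, was 0.04 and 0.03 in Aβ40 1 and 2, against 0.27 and -0.53 in DMSO 1 and 2. The 10 nearest protein-coding genes, by root mean square difference over these 4 libraries, were Fahd2a, Btf3, Pdcd6, Dnajc15, Arl3, Med30, Sec22b, Rnf7, Tmsb4x and Sap30l, at 0.0523 to 0.0592, and 0 of them were in the erythroid lists, which held 90 of the 10870 candidate genes. Within 0.2 of this profile lay 1108 of the 10870 candidates and 9 of the 90 erythroid ones, which is close to the same share. Because the 7 genes followed more than 1 pattern, the same was done for the median profile of the 4 globin genes, a choice made after seeing the data. Its nearest genes were Rpl22l1, Rps20, Gmfg, Katnal1, Usmg5, Retnlg, Rrp15, Lsm5, Syce2 and Bpifc. Within 0.2 of the globin profile lay 349 of 10870 candidate genes and 3 of 90 erythroid candidates. The 349 genes had a median length of 2001 bases, against 4426 bases for all candidates. Of the globin genes, Hba-a1, Hbb-bs and Hbb-bt lay at 0.072, 0.081 and 0.105 from that profile and Hba-a2 at 0.367, while Klf1, Slc4a1 and Alas2 lay at 0.555, 0.583 and 0.653.

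Beyond the members, 100 of the 112 genes found for 8 lists of erythroid roles were tested. Of these, 0 were called by edgeR's quasi-likelihood test, against 0.126% of all tested genes. At an unadjusted p under 0.05 stood 4 higher and 6 lower, 10 of 100 against 12.2% of all tested genes. Limma-voom called 0 of the 100, against 0.185% of all genes it tested. DESeq2 and edgeR's likelihood ratio test called 1, Slc25a37, against 1.18% and 1.64% of all genes they tested. At these shares, 0 or 1 calls in lists of this size say little about the lists. The groups did not overlap for 39 of the 100, against 45.1% of all tested genes. The median log2 fold change was -0.02, beside 0.01 for all genes. The named genes were the most abundant and the most variable of each list.

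In the heme synthesis list 0 of 17 tested genes were called by edgeR's quasi-likelihood test, with a list median of -0.12 and, at an unadjusted p under 0.05, 1 higher (Alas2) and 3 lower. The 3 were Slc25a37, Alas1 and Slc25a39. Slc25a37, or mitoferrin 1, the iron importer of mitochondria, had 89.7 and 97.6 CPM in Aβ40 1 and 2, against 171 and 167 CPM in DMSO 1 and 2. The libraries of each group were close to each other, and both Aβ40 libraries lay below both DMSO libraries. Its log2 fold change was -0.85 (SE 0.16; edgeR quasi-likelihood test with Benjamini-Hochberg adjusted p = 0.126), and it passed with DESeq2 (adjusted p = 0.00427) and with edgeR's likelihood ratio test (adjusted p = 0.00260). Over all alternatives its adjusted p ran from 9.64e-05 to 0.997 and its log2 fold change from -0.93 to -0.79. Alas1, the form of the heme enzyme used outside erythroid cells, had 283 and 298 CPM in Aβ40 1 and 2, against 381 and 456 CPM in DMSO 1 and 2, which gave -0.53 on the log2 scale (SE 0.18; edgeR quasi-likelihood test with Benjamini-Hochberg adjusted p = 0.337). It was thus more abundant than Alas2 per length in every library, at 45.1 and 47.8 FPKM in Aβ40 1 and 2 and 61.5 and 73.5 FPKM in DMSO 1 and 2, and its fold change had the opposite sign. Slc25a39, a mitochondrial carrier, stood at -0.49 (SE 0.18) and Urod, uroporphyrinogen decarboxylase, at 0.40 (SE 0.25).

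In the list of iron uptake 0 of 8 tested genes were called and 0 stood at an unadjusted p under 0.05, and 7 had log2 fold changes above 0, the median being 0.22. Tfrc, the transferrin receptor, had 208 and 164 CPM in Aβ40 1 and 2, against 165 and 150 CPM in DMSO 1 and 2, so the groups overlapped (log2 fold change 0.24, SE 0.19). In the list of globin and heme protection 0 of 11 were called and 0 stood at an unadjusted p under 0.05, with a median of 0.19. Sod1, the copper-zinc superoxide dismutase, had 148 and 158 CPM in Aβ40 1 and 2, against 180 CPM in DMSO 1 and 82.2 CPM in DMSO 2. The DMSO libraries stood at both ends, as for Hba-a1, Hbb-bs and Hbb-bt. The fold change of Sod1 was 0.22 (SE 0.31) on the log2 scale. Hmox1, the heme-degrading oxygenase, had 467 and 377 CPM in Aβ40 1 and 2, against 467 and 488 CPM in DMSO 1 and 2 (log2 fold change -0.18, SE 0.19). Prdx2, an abundant peroxidase of red cells, stood at 0.19 (SE 0.22).

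In the red cell membrane and skeleton list 0 of 22 were called, 17 had a negative log2 fold change, and the median was -0.15. Besides Slc4a1, the list held Kel, a blood group antigen, at 1.12 (SE 0.63) and the mechanosensitive channel Piezo1 at -0.73 (SE 0.65), and neither passed. Cd47, a surface protein of red cells that many other cells also carry, had 508 and 520 CPM in Aβ40 1 and 2, against 615 and 549 CPM in DMSO 1 and 2 (log2 fold change -0.18, SE 0.18). Slc14a1, a urea transporter of red cells, was the 1 gene of the list at an unadjusted p under 0.05 and is named for that, with 6.38 and 6.22 CPM in Aβ40 1 and 2, against 3.48 and 3.33 CPM in DMSO 1 and 2 (log2 fold change 0.88, SE 0.31; edgeR quasi-likelihood test with Benjamini-Hochberg adjusted p = 0.345).

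In the list of erythroid transcription factors 0 of 20 were called, with a median of -0.09 and 2 genes lower at an unadjusted p under 0.05. They were Cited2, a transcriptional co-regulator, at -0.44 (SE 0.16) and Foxo3, a forkhead factor, at -0.44 (SE 0.17). Nfe2, a factor of erythroid cells and megakaryocytes, had 141 and 172 CPM in Aβ40 1 and 2, against 216 and 172 CPM in DMSO 1 and 2 (log2 fold change -0.31, SE 0.19). Gata1, the central erythroid factor, which eosinophils also express, had 10.2 and 10.04 CPM in Aβ40 1 and 2, against 9.97 and 8.07 CPM in DMSO 1 and 2, so Aβ40 2 and DMSO 1 were almost level. In the list of terminal maturation 0 of 17 were called, with a median of 0.02. Bpgm, which makes 2,3-bisphosphoglycerate, and Car2, a carbonic anhydrase, stood at 0.67 (SE 0.22) and 0.49 (SE 0.19), and Mkrn1, a ubiquitin ligase, at -0.42 (SE 0.18), each at an unadjusted p under 0.05 only. Riok3, a kinase active in late erythroid maturation, stood at -0.11 (SE 0.18), and Bnip3l, which clears mitochondria from reticulocytes, at 0.20 (SE 0.19). Bpgm, Car2, Foxo3, Gata1 and Slc14a1 were named after their values were seen.

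**Figure D4:**
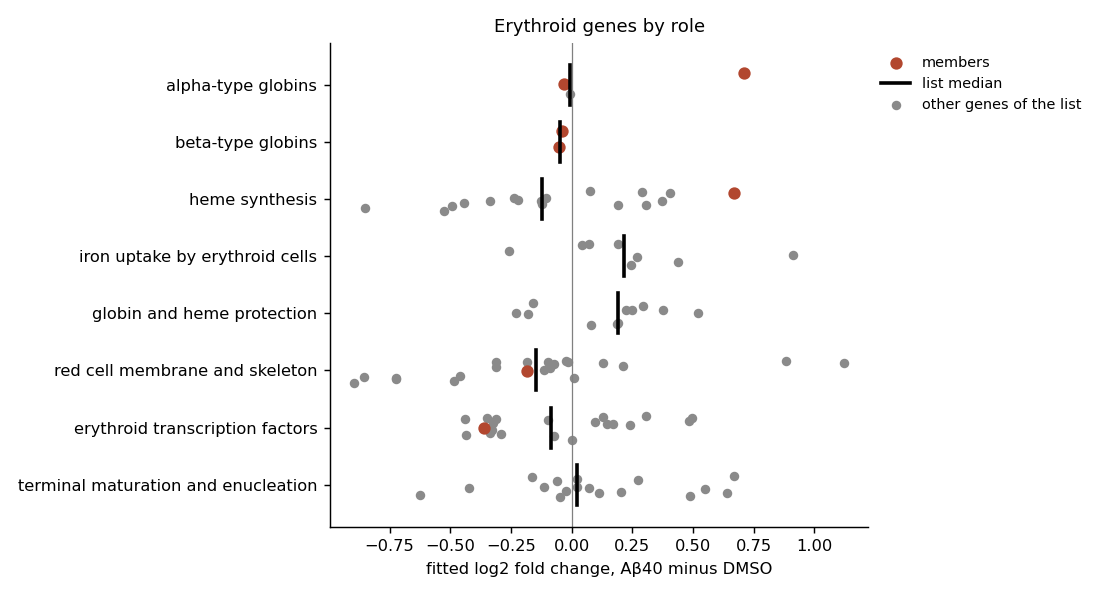
Fitted log2 fold change, Aβ40 minus DMSO (horizontal axis), of each tested gene in 8 lists of erythroid roles, with members in red, other genes in grey and the list median as a black bar; vertical position within a list has no meaning. List medians run from -0.15 for the red cell membrane and skeleton to 0.22 for iron uptake.

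Markers of other blood cells also differed between the libraries. Over all tested genes, edgeR's quasi-likelihood test called 0.126%, each higher with Aβ40. It called 0 of the tested neutrophil, monocyte and macrophage, platelet and megakaryocyte, progenitor and cycling cell markers. Summed B cell markers stood at 1293 and 1296 CPM in Aβ40 1 and 2, against 559 and 651 CPM in DMSO 1 and 2, with 7 of 12 genes called higher by edgeR and all 12 detected in every library. Summed eosinophil markers stood at 3684 and 3742 CPM in Aβ40 1 and 2, against 1687 and 1405 CPM in DMSO 1 and 2, with 1 of 10 genes called higher and all 10 detected in every library. Summed T and NK cell markers stood at 104 and 108 CPM in Aβ40 1 and 2, against 66.8 and 65.5 CPM in DMSO 1 and 2, with 1 of 11 tested genes called higher and 11 of 12 genes detected in every library. Summed monocyte and macrophage markers stood at 3751 and 3282 CPM in Aβ40 1 and 2, against 2895 and 2757 CPM in DMSO 1 and 2, with all 12 detected in every library. Platelet and megakaryocyte markers ranged from 31.4 to 34.4 CPM with Aβ40 and from 35.8 to 39.8 CPM with DMSO, with 9 of 12 detected in every library and Gp1bb at 0. Summed markers of cycling cells stood at 1899 and 1859 CPM in Aβ40 1 and 2, against 1980 CPM in DMSO 1 and 1653 CPM in DMSO 2, with 10 of 10 detected in every library. The cycling cell sum, like globin, was highest in DMSO 1 and lowest in DMSO 2, by a smaller ratio, and the B cell, eosinophil, T and NK cell, monocyte and platelet sums did not have that order. DMSO 2 was the lowest library also for the neutrophil, progenitor, eosinophil, T and NK cell and monocyte sums. A sum of 7 erythroid genes other than globins stood at 82.1 and 59.2 CPM in Aβ40 1 and 2, against 55.9 and 63.7 CPM in DMSO 1 and 2. There DMSO 1 was the lowest library. The part of these other cell types in the levels of the erythroid genes was not tested.

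Embryonic and other globin genes had at most 25 counts in any library. Hbb-y is described with the flagged results. Hbq1b, a theta-type globin gene of the alpha cluster, had 14 and 21 counts in Aβ40 1 and 2, against 25 and 11 counts in DMSO 1 and 2, and passed the filter, with a log2 fold change of -0.01 (SE 0.69). Its order of libraries was that of Hba-a1. Hbb-bh1 had 4 counts in DMSO 1 and 0 in the other libraries, Hbq1a had 1 and 2 counts in Aβ40 1 and 2 and 0 with DMSO, and Hba-x and Hbb-bh2 had 0 counts in every library. A count of 0 allows up to 3 counts in a library.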

How the data were processed

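Gene expression was analysed in 4 libraries, 2 of Aβ40-treated and 2 of DMSO-treated marrow neutrophils, grouped by the labels. The authors deposited raw read counts per gene, and FPKM that, as checked on the values, equal the counts over gene length and an effective library size. HISAT2 2.0.5, featureCounts 1.5.0-p3 and mm10 are listed, per the submitters' processing notes. Not given in the sources used here are strandedness, annotation release and the treatment of reads with several matches. Gene lengths are those of the deposited table.

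Counts were tested in R 4.3.3 with edgeR 4.0.16 (filterByExpr, TMM, glmQLFit and glmQLFTest, intercept and group, 2-sided, Benjamini-Hochberg over 13479 genes, called at adjusted p under 0.05), with 2 residual and 6.88 prior degrees of freedom. Log2 fold changes are Aβ40 minus DMSO. Log2 CPM of single libraries use a prior count of 2. The code was tested on simulated counts. Alternatives were other scalings, TMM without erythroid genes, DESeq2 1.42.0, limma-voom (limma 3.58.1), the likelihood ratio test, other filters, protein-coding genes only, limma on log2(FPKM + 1) or log2(FPKM + 0.1), a replicate block, and omission of each library in turn. Removal of a length trend (lowess, span 0.3) and a crossed block were added after seeing the data.

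The members, lists and tests were chosen with earlier results of these data known. Beyond the members, the rule named any list gene called, else per list the 4 with the highest mean FPKM and the 2 with the widest range, and the 10 genes nearest to the members' profile. Only some of these are described, and some list genes are not reported here. Of the list symbols, Ahsp, Hbb-b1 and Hbb-b2 were not matched.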

Additional observations from a re-analysis of the deposited data

Results flagged for a closer look

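Hbb-y, an embryonic beta-type globin gene (mm10 chr7:103851749-103853216, minus strand), had 14 counts in Aβ40 1 and 0 in Aβ40 2, against 0 in DMSO 1 and DMSO 2. It drew attention because this count lies above the 3 counts that a count of 0 allows, in a gene that did not enter the comparison. The rule looked only for such counts in an Aβ40 library with 0 in both DMSO libraries. Hbb-bh1, which did not enter the comparison either, had 4 counts in DMSO 1 and 0 in the other libraries. The Hbb-y signal stands in 1 of the Aβ40 libraries.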

How the results depend on the processing

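Over all genes, 17 were called higher and 0 lower with Aβ40 by edgeR's quasi-likelihood test (877 and 771 at an unadjusted p under 0.05). The counts higher were 104 with DESeq2, 160 with the likelihood ratio test, 185 with no filter, 27 with the replicate block, 0 in each limma fit of FPKM and 27 with the length trend removed. The counts lower were 1 with library size only, 34 with DESeq2, 61 with the likelihood ratio test, 70 with no filter and 2 with the length trend removed. The labels give no pairing of the libraries by replicate number. The replicate differences of the DMSO and Aβ40 pairs had a correlation of -0.19 over genes, which cannot settle if libraries were paired. The crossed block set Aβ40 1 beside DMSO 2 and Aβ40 2 beside DMSO 1, a pairing with no basis in the labels. It called 445 higher and 276 lower. Leaving out 1 library gave 0 (either Aβ40 library) to 805 genes higher (DMSO 1; 555 for DMSO 2) and 0 to 471 lower (DMSO 1; 469 for DMSO 2). It was 0 to 4 for members called, against 0 with all libraries (without DMSO 1 the 4 globin genes, without DMSO 2 Hbb-bs and Alas2). With no filter 1 member was called, Hba-a2, and 2 with the crossed block, Hba-a2 and Alas2. The median over members, -0.04, ran from -0.25 to 0.55 when 1 library was left out, and the log2 difference of summed globin, 0.13, from -0.51 to 0.76.

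The sign of 3 globin genes, near 0, turned in several fits. Hba-a1 was at 0.0675 with limma-voom, 0.0677 with the replicate block, 0.0675 with the crossed block and 0.0538 or 0.0539 in the limma fits of FPKM. Hbb-bs was at 0.12 with limma-voom and both blocks and 0.11 in the limma fits of FPKM. Hbb-bt was at 0.0352 with limma-voom, 0.0343 with the replicate block, 0.0332 with the crossed block and 0.0208 or 0.0211 in the limma fits of FPKM. When 1 library was left out, Hba-a1 ran from -0.49 to 0.61, Hbb-bs from -0.59 to 0.82, Hbb-bt from -0.49 to 0.55 and Slc4a1 from -0.37 to 0.0207. Sod1 ran from -0.25 to 0.89, Prdx2 from -0.0559 to 0.47, Bnip3l from -0.00788 to 0.37 and Piezo1 from -1.40 to 0.54. Hba-a2 and Alas2 stayed positive and Klf1 and Slc25a37 negative in all 20 alternatives. The causes were not tested. Low counts widen the counting error of Klf1, Kel and Hbq1b.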
